A study of Drosophila melanogaster with 10 samples.

Results

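Cyst cells and hub cells are the somatic cells that surround and anchor the male germline of *Drosophila*. At the tip of the testis a small cluster of non-dividing hub cells secretes the JAK-STAT ligand Upd1 and the Hedgehog ligand Hh, which act on the neighbouring germline and cyst stem cells. Each germ cell cyst is then enclosed by a pair of cyst cells, which mature alongside the germ cells and need transcription factors such as Traffic jam (Tj), Zfh1, Eyes absent (Eya) and Sine oculis (So). *tbrd-1* encodes a testis-specific bromodomain protein of primary spermatocytes. The comparison asked how the transcripts of these somatic cells stood in testes whose germline lacks *tbrd-1* function.

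8 genes were followed, the cyst lineage genes *tj*, *zfh1*, *eya* and *so* and the hub genes *upd1*, *hh*, *Fas3* and *CadN*. Members were the probe sets that the platform annotation pairs with exactly 1 of these genes. 7 of the 8 genes had such a probe set, 1 each, out of 11982 genes with a probe set of their own. *Fas3*, which encodes the adhesion molecule Fasciclin III used to mark hub cells, had none and was not analysed here. In the gene table of the Release 6 assembly *tj*, *eya* and *CadN* lie on chromosome arm 2L, *so* on 2R, *zfh1* and *hh* on 3R and *upd1* on X. The probe sets of *zfh1* (1628262_a_at), *eya* (1623206_a_at) and *CadN* (1633000_a_at) carry the suffix that Affymetrix gives to sets matching several transcripts of 1 gene. Those of *tj* (1631744_at), *so* (1641675_at), *upd1* (1633968_at) and *hh* (1626527_at) carry the plain suffix.

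RNA of whole testes from adult males aged up to 2 days was hybridised to Affymetrix Drosophila Genome 2.0 arrays, 5 arrays for each genotype and a separate pool of 25 animals for each array. Wild-type flies were w1118. Mutants were homozygous for tbrd-1 1 (tbrd-11/tbrd-11), an allele made by remobilising a P element that carries *white* and that had then inserted into *tbrd-1*, so that the mutants also carry *white* copies. All cells of the mutant animals carry the allele, germline and soma alike. Values are signal intensities after robust multi-array averaging (RMA). The procedure corrects the background, gives the probe values of every array the same distribution and then summarises the probes of a set. Medians of the summarised values still differed between arrays.

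The probe set of *tbrd-1* gave signal intensities of 758, 975, 692, 881 and 630 on wild-type replicates 1 to 5 and of 14, 14, 16, 15 and 10 on the mutant replicates, so every array matched its label (exact two-sided permutation test of the mean log2 signals, p = 0.00794, the smallest that 252 regroupings allow). Markers of other tissues varied from array to array. The mean log2 signal of 9 of 10 listed digestive enzyme genes of the gut ran from 4.94 to 9.63 in wild-type and from 4.88 to 8.07 in mutants, and was above 7 on 4 arrays, replicates 1, 3 and 4 of wild-type and 3 of the mutants. That of *Ebp* and *EbpII*, ejaculatory bulb genes, ran from 5.25 to 13.24 and from 6.63 to 13.41, and was above 10 on 5 arrays, replicates 2 and 3 of wild-type and 2, 4 and 5 of the mutants. For 5 of 10 listed muscle genes the mean log2 signal was 9.14 to 9.60 in wild-type and 8.84 to 9.12 in mutants, 2 ranges that did not overlap. For 6 of 6 fat body genes it was 6.61 to 6.96 and 6.19 to 6.39. Of these, 1 gene, the yolk protein gene *Yp3*, fell by 3.80 on the log2 scale. The other 5 did not pass the adjusted p, and the median log2-fold change of the list was 0.14. By quantitative PCR the study also found *Yp3* lower in mutant testes than in wild-type testes. Its level there was also below that of mutants with a *tbrd-1-eGFP* transgene. No marker was at 0, since RMA leaves a positive value for every probe set.

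None of the 7 probe sets passed the thresholds of the study, an adjusted p of at most 0.05 (limma, Benjamini-Hochberg over 18769 probe sets) together with a log2-fold change of 1 or more in either direction. Over all probe sets 664 of 18769, 3.54%, passed both. At the adjusted p alone *tj* and *so* were higher in mutants and *CadN* was lower, 2 and 1 of 7, where 21.6% of all probe sets were higher and 14.7% were lower. With every array centred on its median these shares were 35.1% and 10%, and 2 and 0 of the 7 genes passed. A share of 7 genes is coarse, and neither pair of counts was tested against the whole array. The signals of wild-type and mutant arrays did not overlap for 1 of the 7, *tj*, against 24% of all probe sets. The median log2-fold change of the 7 was -0.06 and that of all probe sets was 0.07. Mutant over wild-type, the 95% intervals of the 7 genes reached no lower than 0.58-fold and no higher than 1.50-fold, so each of them left out a 2-fold difference in signal in either direction. In RNA of a whole organ, fewer cells of a type and less RNA per cell cannot be told apart.

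**Figure D1:**
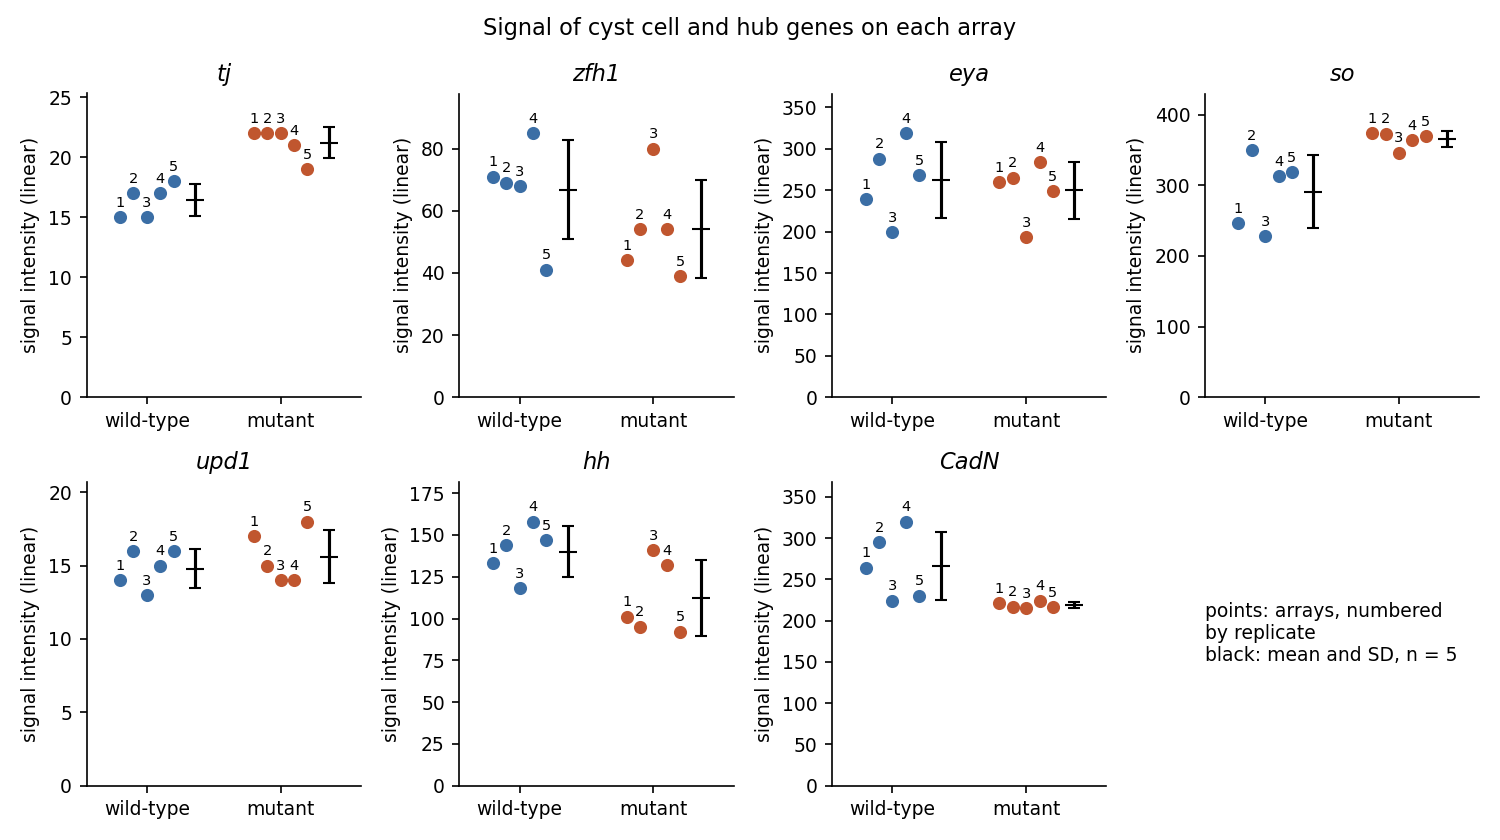
Signal intensity (linear axis from 0) of the 7 probe sets on each of the 10 arrays, with each point 1 array numbered by replicate, wild-type left and mutant right, and the genotype mean ± SD (n = 5) in black. The mutant points lie above all wild-type points for *tj*, between 19 and 22 against 15 to 18, and the genotypes share part of their range or a tied value for the other 6.

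The cyst lineage genes were read first. *tj* encodes a large Maf transcription factor of cyst stem cells and early cyst cells, needed for the somatic cells to wrap the germline. Its probe set gave 15, 17, 15, 17 and 18 on wild-type replicates 1 to 5 and 22, 22, 22, 21 and 19 on mutant replicates 1 to 5. All 5 mutant arrays were above all 5 wild-type arrays. Means were 16.4 ± 1.34 in wild-type and 21.2 ± 1.3 in mutants (SD, n = 5 each), a log2-fold change of 0.37 (SE 0.07, limma adjusted p = 0.00186), or 1.29-fold (95% interval 1.16 to 1.44).

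These are dim signals. *tj* lay between the 18.7 and 22.4 percentiles of the wild-type arrays and the 23.2 and 28.1 percentiles of the mutant arrays, and the files hold no detection calls. Signals near the background compress differences, so a fold change of such a probe set can understate that of its transcript. In the dimmest of 3 equal classes of probe sets by mean signal, which holds *tj* and *upd1*, 15.7% were higher in mutants at the adjusted p alone and 3.28% were lower, with a median log2-fold change of 0.10. In the brightest class the shares were 27.2% and 21.7%. *tj* stood above 90% of all probe sets in log2-fold change. Without the 4 arrays bright in gut genes its log2-fold change was 0.26 (limma adjusted p = 0.0845), and without the 5 arrays on which *Ebp* and *EbpII* were bright it was 0.40 (limma adjusted p = 0.0682). Fewer arrays also weaken a test, and the cause of these losses was not tested.

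*zfh1* encodes a zinc finger and homeodomain repressor that maintains the cyst stem cells and is down-regulated as their daughters differentiate. The signals were 71, 69, 68, 85 and 41 in wild-type and 44, 54, 80, 54 and 39 in mutants. The genotypes overlapped over nearly their whole range, and the largest spread within a genotype among the 7 genes was that of *zfh1*, with coefficients of variation of 23.9% and 29.2%. The log2-fold change of -0.31 (SE 0.22, 95% interval -0.78 to 0.17) did not pass (limma adjusted p = 0.284). The lowest arrays, wild-type replicate 5 and mutant replicate 5, were also the lowest of their genotype for the gut markers, and mutant replicate 3 was the highest mutant array for both. Over the 10 arrays, deviations of *zfh1* from its genotype mean correlated with those of the gut markers at r = 0.74. This was its largest coefficient with the 7 marker lists, and the dim *upd1* had one of -0.79 with the gut markers. *zfh1* is also known from other mesodermal tissues, and the part of other tissues in its spread was not tested.

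*eya* and *so* act together, Eya as a transcription coactivator with phosphatase activity and So as the homeodomain protein that brings it to DNA. Both are needed in cyst cells of spermatogonial and spermatocyte cysts for the germ cells to proceed. *eya* gave 239, 288, 199, 319 and 268 in wild-type and 260, 265, 193, 284 and 249 in mutants, and all mutant values lay inside or just under the wild-type range. Its mean signal was 263 ± 46 (SD, n = 5) against 250 ± 34.4 (SD, n = 5). The log2-fold change was -0.06 (SE 0.14, limma adjusted p = 0.736), and the 95% interval of the ratio ran from 0.78 to 1.18. Of the 4 cyst lineage genes, *eya* had the log2-fold change nearest to 0.

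*so* gave 246, 350, 228, 313 and 319 in wild-type and 374, 373, 346, 364 and 370 in mutants. Wild-type replicate 2 was above mutant replicate 3, and the other arrays were separated. Means were 291 ± 51.8 in wild-type and 365 ± 11.5 in mutants (SD, n = 5 each), and the log2-fold change was 0.35 (SE 0.11, limma adjusted p = 0.0305), or 1.27-fold (95% interval 1.07 to 1.50). Among the wild-type arrays replicates 1 and 3 were the lowest, and replicates 4 and 5 were also under all mutant arrays.

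On wild-type replicates 1 and 3 the gut markers were at their brightest, with mean log2 signals of 9.55 and 9.63, and the muscle markers at 9.55 and 9.60. The germline markers, a list of 6 early germline genes with *vas* and *bam* among them and all 6 measured, were at their lowest in wild-type there, 6.53 and 6.34 in a wild-type range of 6.34 to 6.77 and a mutant range of 6.45 to 6.78. On mutant replicate 3, the lowest mutant array for *eya* and *so*, the germline mean of 6.45 was the lowest of the mutants and the gut mean of 8.07 the highest. Deviations of *so* from its genotype means correlated at r = 0.82 with those of the germline markers, -0.80 with the gut markers and -0.86 with the muscle markers over 10 arrays. For *eya* the value was 0.94 with the germline markers, and *eya* and *so* correlated with each other at 0.75. The coefficients with marker lists given here are those largest in size for each gene among the 7 lists. These points share arrays and their normalization, and the coefficients are descriptions without a test. Without the 4 arrays bright in gut genes the log2-fold change of *so* was 0.15 (limma adjusted p = 0.197) and that of *eya* was -0.07, so the call of *so* was not kept on the remaining 6 arrays. Centring every array on its median raised *so* to 0.45 (limma adjusted p = 0.0144).

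**Figure D2:**
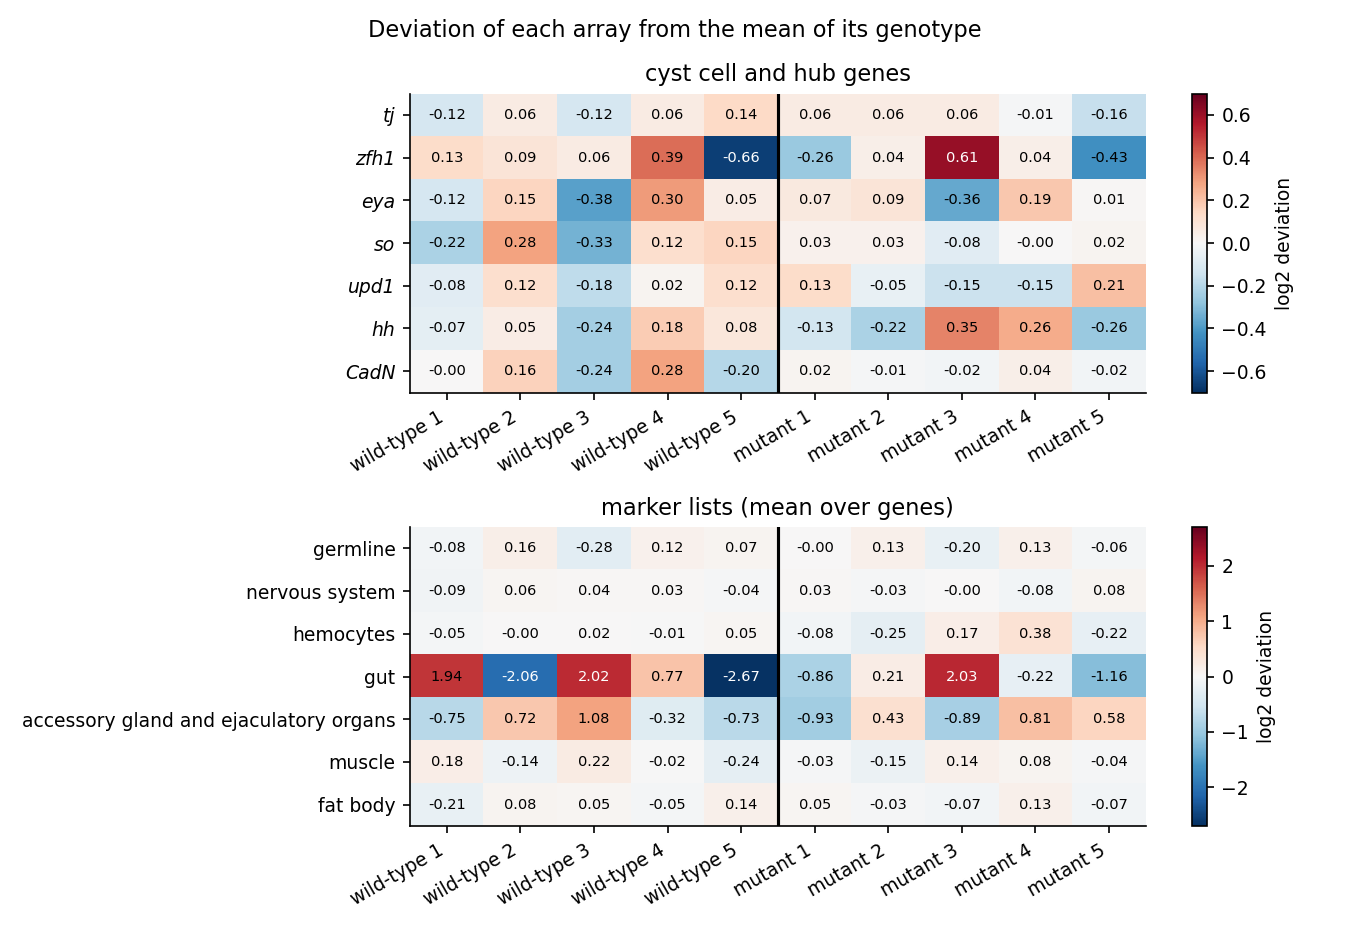
Deviation of each array's log2 signal from the mean of its genotype, printed and coloured in each cell (red above, blue below, a wider colour scale for the lists), with arrays as columns and the cyst cell and hub genes and the 7 marker lists as rows. *eya* and *so* lie lowest on wild-type replicate 3 and mutant replicate 3, where the germline markers are also lowest, and *hh* lies highest among mutants on replicates 3 and 4.

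The relatives and partners of Eya and So gave the retinal determination genes. 6 of 6 had a probe set, 3 were higher in mutants at the adjusted p alone and 0 were lower, with a median log2-fold change of 0.28. Over all probe sets 21.6% were higher and 14.7% lower, and the same shares stand beside the list counts that follow. *Optix*, a homeobox gene of the same family as *so*, gave 608 ± 99 in wild-type and 932 ± 84.5 in mutants (SD, n = 5 each), a log2-fold change of 0.63 (limma adjusted p = 0.0012). *eyg*, a Pax family gene, rose by 0.76 (limma adjusted p = 0.00071) from 49.2 ± 8.38 to 82.8 ± 8.93. For both of these genes all mutant arrays were above all wild-type arrays, where 24% of all probe sets had no overlap in either direction. *toy*, a Pax6 homologue, rose by 0.32 (limma adjusted p = 0.023) from a dim 22.4 ± 2.7 to 27.8 ± 2.59, a call kept in 14 of 21 alternative settings. The remaining 3, *dac*, *Six4* and *ey*, did not pass, at 0.05, 0.17 and 0.24.

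Among the hub signals, *upd1* encodes the ligand that activates JAK-STAT signalling in both stem cell types. Its signals were 14, 16, 13, 15 and 16 in wild-type and 17, 15, 14, 14 and 18 in mutants. The genotypes overlapped, at 14.8 ± 1.3 and 15.6 ± 1.82 (SD, n = 5 each), and the log2-fold change was 0.07 (95% interval -0.13 to 0.27, limma adjusted p = 0.548). The probe set lay between the 13.8 and 21.6 percentiles of its arrays. The 95% interval of the ratio, 0.92 to 1.21, is one of signal, and so near the background it may understate a change of the transcript.

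10 of 13 listed JAK-STAT genes had a probe set, and at the adjusted p alone 3 were higher and 2 lower, with a median log2-fold change of -0.06. *dome*, the receptor, rose by 0.24 (limma adjusted p = 0.01) from 372 ± 27.5 to 439 ± 16.9. *Su(var)2-10*, which encodes the PIAS inhibitor of STAT, rose by 0.59 (limma adjusted p = 0.00069) from 448 ± 67.7 to 671 ± 28.5. Its genotypes did not overlap, as for 24% of all probe sets. A second, dimmer probe set of *Su(var)2-10* stood at -0.15 and did not pass the adjusted p, so the rise was not seen in both sets. *ken*, a repressor of a subset of STAT targets, was lower by a log2-fold change of -0.37 (limma adjusted p = 0.017), and *apt*, which limits STAT activity in the ovary, by one of -0.29 (limma adjusted p = 0.039). With the arrays centred on their medians 3 were higher and 0 lower, and the calls of *ken* (limma adjusted p = 0.079) and *apt* (limma adjusted p = 0.21) were lost. Chosen after their values were seen, the transcription factor *Stat92E* stood at -0.26 (limma adjusted p = 0.071) and its cyst stem cell target *chinmo* at -0.03 (limma adjusted p = 0.93).

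*hh* encodes the Hedgehog ligand, which hub cells provide to cyst stem cells. It gave 133, 144, 118, 158 and 147 in wild-type and 101, 95, 141, 132 and 92 in mutants. Mutant replicates 1, 2 and 5 lay under every wild-type array, and mutant replicates 3 and 4 lay within the wild-type range. The log2-fold change of -0.34 (SE 0.13, 95% interval -0.62 to -0.05) had an unadjusted limma p of 0.0264 and did not pass after adjustment (limma adjusted p = 0.0664). Without mutant replicate 3 it was -0.42 (limma adjusted p = 0.0217), without mutant replicate 4 -0.40 (limma adjusted p = 0.0405) and without wild-type replicate 3 -0.40 (limma adjusted p = 0.0452), and each of these passed. Leaving out any 1 of the other 7 arrays did not give a pass, with the smallest change at -0.27 (limma adjusted p = 0.151, without mutant replicate 5), nor did median centring, at -0.23 (limma adjusted p = 0.163).

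The split among mutant arrays of *hh* went with that of the blood cell markers. The mean log2 signal of 6 hemocyte genes, all 6 listed, was 6.77 and 6.98 on mutant replicates 3 and 4 and 6.53, 6.35 and 6.39 on mutant replicates 1, 2 and 5. In wild-type it ran from 6.80 to 6.90. Of these 6 genes 2 were lower in mutants at the adjusted p alone, *srp* and *crq*, and 0 higher. The other 4, *NimC1*, *Pxn*, *eater* and *Hml*, did not pass, and the median log2-fold change of the list was -0.03. *srp*, the GATA factor of blood cells and fat body, was named after its value was seen and fell by 1.36 on the log2 scale. Deviations of *hh* correlated with those of the list at r = 0.79 over 10 arrays, its largest coefficient among the 7 marker lists. The part of blood cells in the *hh* signal was not tested.

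The genes that carry the Hedgehog signal had 11 of 13 listed members measured, 5 lower and 2 higher at the adjusted p alone, with a median log2-fold change of -0.15. Over all probe sets 14.7% were lower and 21.6% higher. *ci*, the transcription factor of the pathway, gave 137, 160, 126, 146 and 141 in wild-type and 91, 74, 94, 82 and 83 in mutants. No mutant array reached the lowest wild-type value, where 24% of all probe sets had no overlap of the genotypes. The log2-fold change of *ci* was -0.74 (limma adjusted p = 3.9e-05). *shf*, which encodes a secreted protein that helps Hedgehog spread, was lower by a log2-fold change of -0.68 (limma adjusted p = 0.0012). *cos*, the kinesin-like scaffold of the Ci complex, stood at -0.37 (limma adjusted p = 0.0052), and *Su(fu)*, an inhibitor of Ci, rose by 0.36 (limma adjusted p = 0.0028). *ptc*, receptor and target of the pathway, stood at 0.14 (limma adjusted p = 0.36) and was named after its value was seen. With the arrays centred on their medians 3 were lower and 2 higher, beside 10% and 35.1% of all probe sets.

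*CadN* encodes N-cadherin, one of the adhesion proteins that hold hub cells together and also a cadherin of neurons. Its signals were 264, 295, 224, 320 and 230 in wild-type and 221, 217, 215, 224 and 216 in mutants. The mutant arrays lay at or under the lowest wild-type value, with 1 tie at 224. Means were 267 ± 41.3 in wild-type and 219 ± 3.78 in mutants (SD, n = 5 each), and the log2-fold change was -0.27 (SE 0.09, limma adjusted p = 0.0431), or 0.83-fold (95% interval 0.72 to 0.96). The coefficient of variation was 15.5% among wild-type arrays and 1.73% among mutants, a difference that was not tested.

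The call of *CadN* was near the threshold. With the arrays centred on their medians the log2-fold change was -0.17 (limma adjusted p = 0.173), and it passed in 10 of 22 alternative settings. Of the nervous system list 7 of 8 genes had a probe set, with a mean log2 signal of 4.91 to 5.07 in wild-type and 4.71 to 4.88 in mutants. Of these 7, 2 were lower at the adjusted p alone, *nSyb* and *brp*, and 1 was higher, *VGlut*. The others, *elav*, *ChAT*, *Appl* and *repo*, did not pass, and the median log2-fold change of the list was -0.03. *nSyb*, a synaptic vesicle gene named after its value was seen, fell by 1.16 on the log2 scale. *ChAT*, *Appl*, *repo* and *VGlut* were dim, with wild-type means of 15.8, 15, 15.6 and 18.4. Deviations of *CadN* correlated at r = 0.17 with those of this list and at 0.59 with those of the germline markers over 10 arrays.

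16 of 20 listed genes of adhesion and junctions were measured, 4 lower and 4 higher at the adjusted p alone, with a median log2-fold change of 0.07. *Delta*, a Notch ligand, rose by 0.93 (limma adjusted p = 2.3e-05) from 45.6 ± 5.98 to 86.2 ± 6.98, while a second, dimmer probe set of the gene stood at -0.26. *rhea*, which encodes talin, and *mys*, the beta subunit of the integrins that talin binds, were lower by log2-fold changes of -0.63 and -0.53 (limma adjusted p = 0.00018 and 8e-04). Integrin and talin anchor the hub at the testis tip and are abundant in muscle, whose markers were lower in mutants for 3 of 5 measured genes at a median of -0.39, and that part was not tested. *baz*, the fly Par-3, was lower by a log2-fold change of -0.62 (limma adjusted p = 0.0057). *shg*, the E-cadherin of hub and stem cell junctions, was higher at 0.44 (limma adjusted p = 0.0033) and was named after its value was seen.

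**Figure D3:**
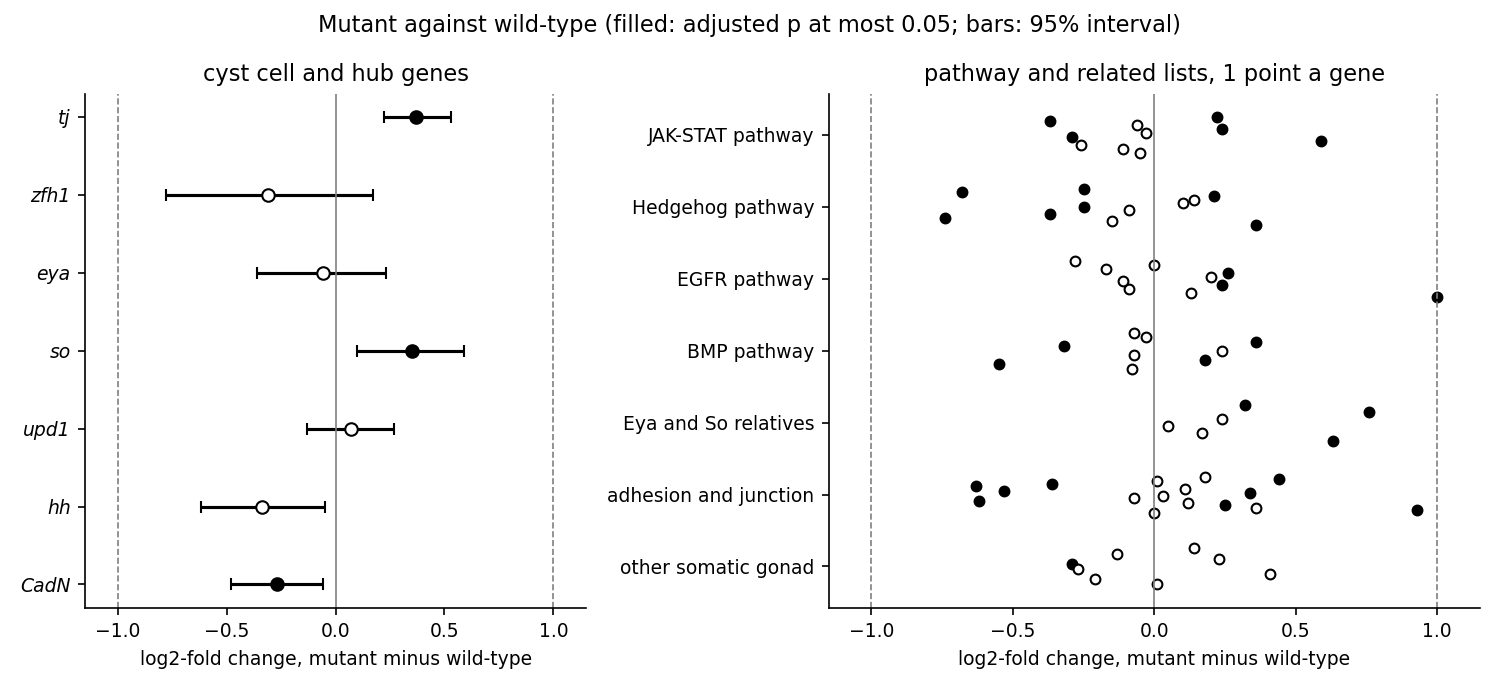
Log2-fold change of mutant over wild-type for each probe set of the cyst cell and hub genes and for 1 probe set of each pathway gene, with bars for 95% intervals on the 7 genes, filled points for an adjusted p of at most 0.05, and dashed lines at the fold minimum of 1 in either direction. The 7 genes lie between -0.34 and 0.37, and of the pathway genes *Cbl* at 1.00 reaches the line.

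3 further groups were set beside the 7 genes, the EGFR pathway, through which spermatogonia and cyst cells communicate, the BMP pathway of the stem cell niche, and other genes of the somatic gonad. For EGFR 10 of 17 listed genes were measured, with 3 higher, 0 lower and a median log2-fold change of 0.06. *Cbl*, a ubiquitin ligase that down-regulates the EGF receptor, was the 1 gene of all 7 groups past both thresholds, at 1.00 (limma adjusted p = 2e-06) and from 93.4 ± 8.23 to 187 ± 12.1. It lay on the fold minimum and fell under it in 6 of 22 alternative settings, among them ribosomal protein scaling (0.97) and the fit without wild-type replicate 4 (0.94). A second, dimmer probe set of *Cbl* stood at -0.16 and did not pass the adjusted p. *aos*, a secreted inhibitor of the receptor, and *Krn*, a ligand, rose by 0.26 (limma adjusted p = 0.038) and 0.24 (limma adjusted p = 0.024), and *Egfr* itself, named after its value was seen, stood at -0.09 (limma adjusted p = 0.5).

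For BMP 9 of 10 genes were measured, with 2 higher and 2 lower and a median of -0.07. *Mad*, the signal transducer, was lower at -0.55 (limma adjusted p = 0.00056) and *put*, the type II receptor, at -0.32 (limma adjusted p = 0.004). *sax*, a type I receptor, rose by 0.36 (limma adjusted p = 0.0039) and *Med*, the co-Smad, by 0.18 (limma adjusted p = 0.045), while the ligand genes *dpp* and *gbb* stood at -0.07 and 0.24 and did not pass. Over all probe sets 21.6% were higher and 14.7% lower at the adjusted p alone. The call of *Med* was kept in 7 of 22 alternative settings.

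Of the other somatic gonad genes 8 of 10 were measured, 1 was lower and 0 higher, and the median was -0.06. The 1 gene, *lin*, which encodes the Lines protein that keeps cyst stem cells from taking hub fate, was lower at -0.29 (limma adjusted p = 0.021), and with median centring it stood at -0.19 (limma adjusted p = 0.096). The sex determination gene *dsx*, named after its value was seen, stood at -0.27 (limma adjusted p = 0.22). Over the 7 groups together 17 of 70 measured genes (24.3%) were higher and 14 (20%) lower at the adjusted p alone, with a median log2-fold change of 0.01. Over all probe sets the shares were 21.6% and 14.7%. With median centring 26 of the 70 genes were higher and 9 lower, beside 35.1% and 10% of all probe sets. On the 5 arrays left without those bright in *Ebp* or *EbpII*, 4 of the 23 pathway genes that the naming rule gave passed the adjusted p, *Cbl*, *ci*, *Delta* and *ken*. On the 6 arrays left without those bright in gut genes, 13 of the 23 did, and *Cbl*, *ci* and *Delta* were again among them.

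The genes most like the members were sought among 8293 genes with a mean log2 signal of at least 6, by Pearson correlation of deviations from genotype means over 10 arrays. *zfh1*, *tj* and *upd1* were below that signal and were left out. For *eya* they were *aln* (r = 0.99), *CG40470* (0.99) and *MTPAP* (0.98), and for *so* they were *CG30161*, *BORCS6* and *RpL22-like* (0.98 each). For *CadN* they were *Mst27D* (0.96), *CG32371* (0.96) and *CG11018* (0.95), and for *hh* *CG5500* (0.95), *gzl* (0.94) and *Vps2* (0.93). No gene was shared between these 4 sets of 3. With 10 arrays and 8293 candidates high coefficients are easily reached, and they are given without a test.

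**Figure D4:**
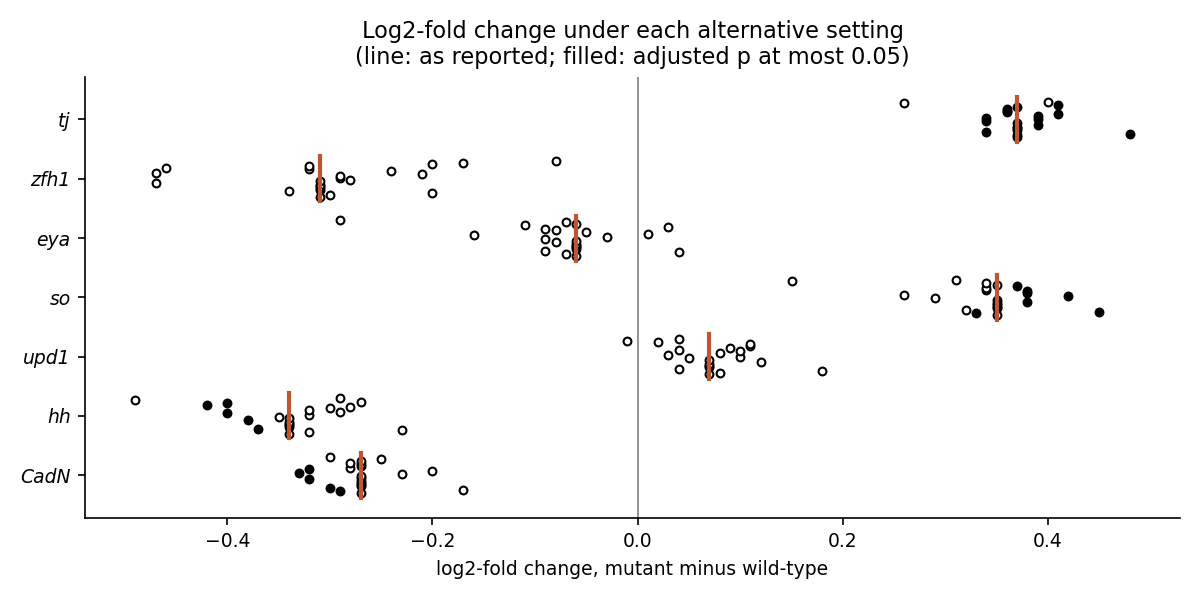
Log2-fold change of each of the 7 genes (horizontal axis) as reported (line) and under each alternative setting (points), filled where the adjusted p was at most 0.05. *tj* and *so* stay above 0 and *hh*, *zfh1* and *CadN* below 0 in all of them, and *eya*, from -0.29 to 0.04, and *upd1*, from -0.01 to 0.18, cross 0.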

How the data were processed

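The authors deposited 1 table of signal intensity for 18952 probe sets and 10 arrays. The submitters' processing notes name RMA and Affymetrix Expression Console, with versions not given in the sources used here, and the values are linear and rounded to whole numbers. Array medians were 68 to 77 in wild-type and 67 to 70 in mutants. Log2 was taken. After 183 Affymetrix controls had been dropped, limma 3.58.1 in R 4.3.3 (lmFit, eBayes) fitted a genotype term to the remaining 18769. The fit and its calls at both thresholds were tested on simulated data. Those data held changes larger than those of the cyst cell and hub genes and no variation shared between probe sets. Changes as small as those of these genes were not covered.

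Per the platform annotation 13647 probe sets belong to 1 gene, 402 to more than 1 and 4720 to no gene named there, and 13544 symbols were brought up to date through the Release 6 gene table. The files name no assembly, so no coordinates are given. Lists use the probe set of a gene with the highest mean log2 signal. The genes, 7 pathway and related lists, 7 marker lists and tests were chosen with earlier results of these data known. In each pathway list up to 4 genes with the largest absolute change at an adjusted p of at most 0.05 are named, and 3 genes of like pattern for each bright member. Other genes given with a log2-fold change were named after their values were seen, *dac*, *Six4*, *ey*, *dpp*, *gbb*, *srp*, *nSyb* and *Yp3* among them. The number of arrays, 5 per genotype, limits the precision. Replicate numbers did not pair the arrays. Alternatives were the methods' t-test, which the study names beside limma, folds of arithmetic means, median centring, ribosomal protein scaling (43 probe sets), the dimmest of 3 equal classes of probe sets left out, control probe sets kept, a variance trend, a robust prior, array weights, a replicate block and each array left out. Leaving out arrays bright in gut genes (mean log2 above 7) or in *Ebp* with *EbpII* (above 10) was added after seeing the data. The first left wild-type replicates 2 and 5 beside mutant replicates 1, 2, 4 and 5. The second left wild-type replicates 1, 4 and 5 beside mutant replicates 1 and 3. Python 3.11.15 with matplotlib 3.10.9 made the plots.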

Additional observations from a re-analysis of the deposited data

Results flagged for a closer look

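6 of 88 groups of 5 arrays tested, over the cyst cell and hub genes and the pathway and marker genes given with a log2-fold change of their own, held 1 array that stood apart from the other 4 by Dixon's criterion (0.71 for 5 arrays), and chance gives about 1 in 20. None of the 7 cyst cell and hub genes was among them. *cos* read 52 on mutant replicate 3, against 61 to 64 on the other mutant arrays. On wild-type replicate 4 *Cbl* read 79, against 94 to 98, and *lin* read 120, against 95 to 100. *aos* read 30 on mutant replicate 1, against 25 to 26. *ey* read 19 on mutant replicate 4, against 25 to 27. *put* read 276 on mutant replicate 4, against 238 to 247.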

How the results depend on the processing

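None of the 7 genes passed both thresholds in any of 22 alternative settings, and no called value changed sign. The call of *tj* passed in 19 of 21 settings (0.26 to 0.48) and was lost without the arrays bright in gut genes (0.26) and without the 5 with bright *Ebp* and *EbpII* (0.40). That of *so* was lost with the methods' t-test (0.35), ribosomal scaling (0.32) and without either set of bright arrays (0.15 and 0.31), and in 6 of 10 fits that left out 1 array, wild-type replicate 1 or 3 or mutant replicate 1, 2, 4 or 5 (0.26 to 0.42 over the 10). That of *CadN* was lost with the t-test (-0.27), median centring (-0.17) and without either set of bright arrays (-0.25 and -0.30), and in 8 of the 10, those without wild-type replicate 1, 2 or 4 or any 1 mutant array (-0.33 to -0.20). *hh* passed with ribosomal scaling (-0.37), with array weights (-0.38) and in 3 of the 10, those without wild-type replicate 3 or mutant replicate 3 or 4 (-0.42 to -0.27). Higher at the adjusted p alone were 1 of 7 with the t-test or ribosomal scaling, 0 without either set of bright arrays, and 1 to 2 with 1 array left out. With the dimmest class left out *tj* had no value, and *so* still passed as higher (limma adjusted p = 0.0267). Lower were 0 with the t-test, with median centring and without either set of bright arrays, 2 with ribosomal scaling or array weights, and 0 to 2 with 1 array left out. Median centring moved all log2-fold changes by 0.10 and ribosomal scaling by -0.03. The cause of these changes was not tested.

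With all probe sets of each gene, 7 were lower and 9 higher of 28 for adhesion, 2 and 6 of 27 for the other somatic gonad genes, and 3 of 11 were higher for the nervous system and 1 of 7 for hemocytes, where 14.7% of all probe sets were lower and 21.6% higher. Of the pathway genes, *Cbl*, *ci* and *Delta* passed the adjusted p in all 22 settings. *aos* passed in 9 of 21, *Med* in 7 of 22, *apt* in 12 of 22, *Krn* in 14 of 22, *toy* in 14 of 21, *lin* in 18 of 22 and *ken* in 20 of 22. *Cbl* was under the fold minimum in 6 of 22, at 0.91 to 0.99. Same-numbered arrays correlated between -0.31 and 0.48, and 1 of 5 wild-type arrays correlated best with its own number. With the replicate number as a block the adjusted p was 0.0157 for *tj*, 0.0321 for *so*, 0.0486 for *CadN* and 0.0966 for *hh*, and the calls over all probe sets were 499 lower and 221 higher, against 443 and 221. Without the dimmest class *tj* and *upd1* have no value.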
